A study of Mus musculus with 20 samples.

Results

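The genes described here encode subunits of the RNA exosome: Exosc1, Exosc2, Exosc3, Exosc4, Exosc5, Exosc7, Exosc8, Exosc9, Exosc10 and Dis3. They were taken by symbol from GENCODE release M21 of the mouse genome, and all 10 were found among the 55471 genes of the deposited gene table and among the 55471 regions of the PROMPT table. PROMPTs (promoter upstream transcripts) are short-lived RNAs made upstream of a promoter, and each PROMPT row carries the identifier of the gene at whose promoter it lies. The RNA was total RNA of SIMS, a salivary gland line of the mouse, grown in DMEM with 10% serum. The unedited line (wild type) was set beside Btbd7 KO cells, the negative control of the study, and Zcchc8 KO cells from 3 clones, numbered 1, 2 and 3. Both genes were edited with CRISPR/Cas9, and no group received any other treatment. Each of the 5 groups had 4 libraries, 20 in all, and 19 of these were in the PROMPT table, which lacks replicate 1 of wild type. Each Zcchc8 KO group is 1 clone, and the labels do not say whether the Btbd7 KO cells are 1 clone or a pool. They do not say either whether the libraries of a group came from separate cultures, so the p-values measure the spread between these libraries, which may be technical.

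The RNA exosome degrades and trims RNA from its 3′ end. EXOSC4, EXOSC5, EXOSC7, EXOSC8 and EXOSC9 belong to its barrel, which has no catalytic activity in mammals, and EXOSC1, EXOSC2 and EXOSC3 form the RNA-binding cap on top. DIS3, at the bottom of the barrel, and EXOSC10, a nuclear subunit, are the ribonucleases. ZCCHC8 holds together the NEXT complex (nuclear exosome targeting), an adaptor that delivers PROMPTs and other nuclear RNAs to the exosome, so loss of ZCCHC8 removes a supplier of substrates and no subunit. The rule asked whether the exosome genes rose or fell in cells without it.

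Gene counts ran from 6833258 to 17771804 per library and PROMPT counts from 1569548 to 3966608. Levels are given in CPM, the count divided by the scaled size of its library and set to a common total. Wild-type replicate 1 stood apart, with 14245 genes holding a count where the other 3 of its group had 17442 to 18791. Btbd7 counts were 202 ± 7.64 CPM in wild type and 99.2 ± 3.23 in Btbd7 KO (SD, n = 4 each). Zcchc8 counts were 65.1 ± 2.92 CPM in wild type, and in clones 1, 2 and 3 they were 60.3 ± 4.28, 23.3 ± 1.35 and 54.6 ± 4.84 (n = 4 each), so that they separated clone 2 clearly and do not by themselves show the edit in the others. All 6 epithelial markers examined (Krt7, Krt8, Krt18, Krt19, Epcam and Cdh1) lay at 229 CPM or more in wild type, and of the acinar markers Aqp5 lay at 178 and Amy1 at 0.16. Ptprc, Cdh5, Pdgfrb and Acta2, which mark leukocytes, endothelium, fibroblasts and myoepithelium, were at 0 in wild type, whereas Krt14 was at 319 and Col1a1 at 11.4. Pecam1, Myh11 and Col1a2 lay under 1 CPM and Bhlha15 at 1.61. Krt7, Krt8, Krt18, Krt14 and Aqp5 were called lower in Zcchc8 KO (log2 fold changes -0.59, -0.38, -0.46, -0.52 and -0.42) and Col1a1 higher (0.67). Krt8 and Krt14 were not called in clone 2 (-0.10 and -0.15), nor Col1a1 in clone 1 (-0.09). Krt19 was called in every clone with unlike signs (-0.35, 0.60 and -0.57 in clones 1 to 3). In Btbd7 KO, Aqp5 was called lower too (-0.69), and Col1a1 (0.66), Col1a2 (1.81), Krt14 (0.37) and Krt19 (0.32) higher. The part of these markers in the values below was not tested.

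In wild-type cells the 2 ribonucleases were the most abundant members per length. Divided by the summed exon length of the gene, Exosc10 stood at 23.6 ± 2.25 CPM per kilobase and Dis3 at 19.1 ± 1.01 (SD, n = 4), and the libraries of these genes did not overlap each other (21.3 to 26.6 against 18.3 to 20.6). Exosc1 followed at 11.9 ± 1.14, Exosc8 at 10.1 ± 1.78, Exosc2 at 9.52 ± 1.61 and Exosc4 at 9.4 ± 1.47, and each of these neighbours overlapped the next. Exosc3, at 5.02 ± 1.71, Exosc9, at 4.26 ± 0.494, and Exosc7, at 3.69 ± 1.4, overlapped one another and lay below all 4 Exosc4 values. Exosc5 was lowest at 2.01 ± 0.529 and overlapped Exosc7. Exosc10 and Dis3 kept ranks 1 and 2, and Exosc5 rank 10, in the means of all 5 groups. The length counts the exons of every annotated transcript, so a gene with long rare transcripts reads low on this scale.

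For the mean of the Zcchc8 KO clones Dis3, Exosc1, Exosc8, Exosc9 and Exosc10 fell, to between 0.769 and 0.896 of wild type on the fitted fold scale, and the other 5 did not pass the test. The count was 5 of 10 called lower and 0 of 10 called higher (adjusted p under 0.05 by edgeR over 15297 genes), against a background of 19.9% of all tested genes called lower and 16.2% called higher. At an unadjusted p under 0.05, 2 members were higher (Exosc3 and Exosc5), and DESeq2 called 1 (Exosc5). With cell lines in place of libraries as replicates, 3 clones against 2 control lines, 0 of 10 members were called lower by edgeR, with adjusted p = 0.0823 for Exosc1 and 0.0971 for Dis3 (3 were lower at an unadjusted p under 0.05: Exosc1, Exosc9 and Dis3). The median log2 fold change was -0.19 over the members and -0.01 over all tested genes. Summed over the 10 genes, the level was 432 ± 30 CPM in wild type, 457.7 ± 12.3 in Btbd7 KO and 376 ± 18.5, 362.6 ± 8.69 and 388.1 ± 14.1 in clones 1, 2 and 3 (SD, n = 4 each). In bulk RNA, fewer expressing cells and less RNA per cell cannot be told apart.

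**Figure D1:**
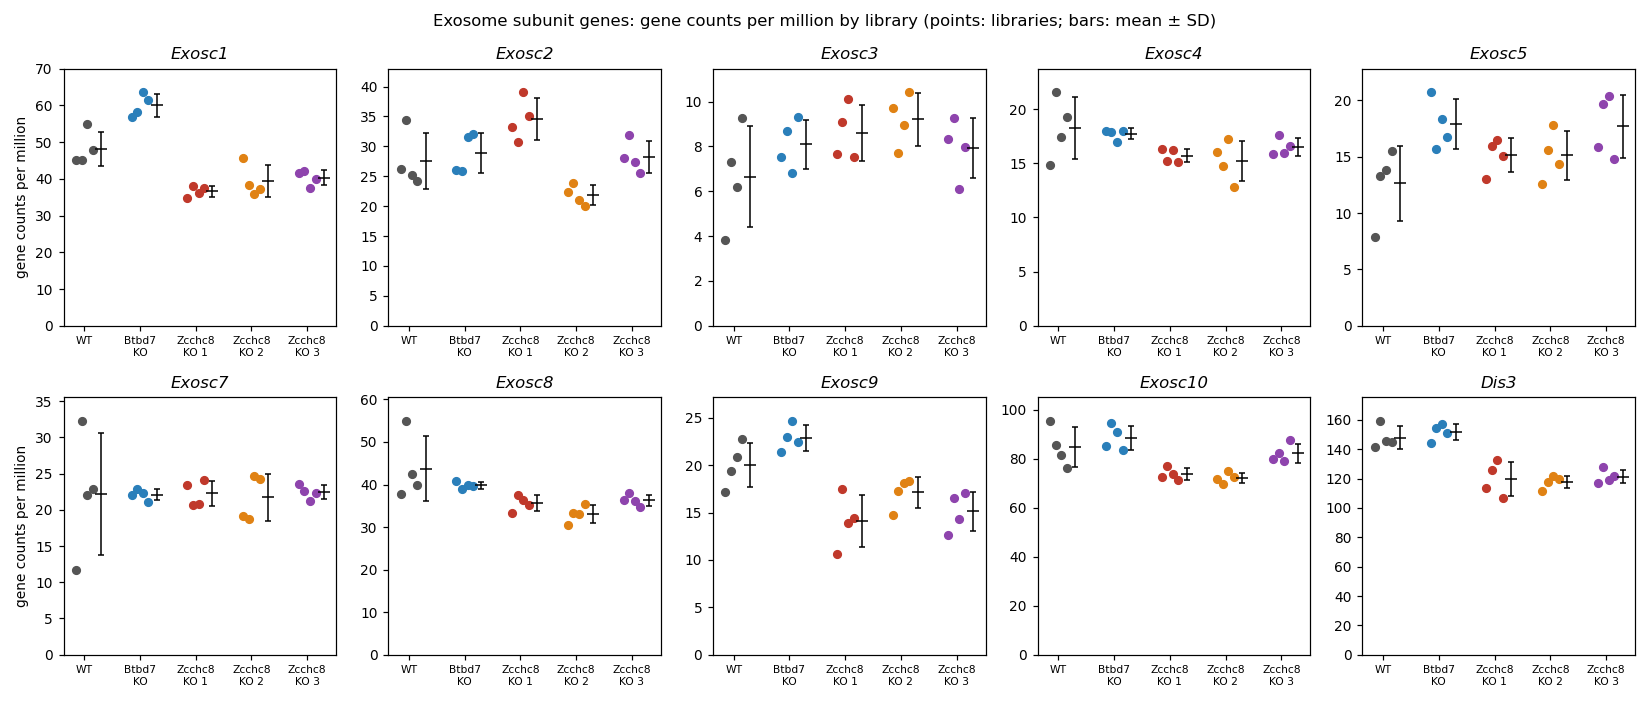
Gene level in CPM (vertical axes, each from 0) of the 10 exosome genes in every library, by group (horizontal axis). Points are libraries and bars are the mean ± SD. All 12 Zcchc8 KO libraries lie below all wild-type libraries for Dis3 and 11 of 12 for Exosc1 and Exosc8, while the wild-type libraries of Exosc7 span 11.64 to 32.29.

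Dis3, the processive ribonuclease of the complex (chromosome 14, 99075206 to 99099770, GRCm38), fell by similar amounts in the 3 clones. Its wild-type libraries, in replicate order, read 141.6, 159.4, 145.9 and 145.2 CPM, and the Btbd7 KO libraries 144.2, 154.6, 157.3 and 151.1. Clone 1 read 113.3, 126.1, 132.5 and 107, clone 2 111.8, 117.9, 121.8 and 119.8, and clone 3 117.3, 127.8, 118.9 and 121.7. Every one of the 12 knockout libraries lay below every one of the 8 control libraries. On the log2 scale this was a change of -0.31 (edgeR adjusted p = 3.64e-05, SE 0.051) for the mean of the clones, and -0.31, -0.33 and -0.29 in clones 1, 2 and 3, each called. In Btbd7 KO it was 0.04, with a 95% interval of -0.09 to 0.16.

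Exosc10, the nuclear ribonuclease (chromosome 4, 148558429 to 148582401), was lower in clones 1 and 2 and near wild type in clone 3. Wild type read 95.47, 85.63, 81.49 and 76.41 CPM, clone 1 ran from 71.32 to 77.18, clone 2 from 69.53 to 74.83 and clone 3 from 78.9 to 87.63. Clone 2 lay below wild type, clone 1 reached only its lowest library, and clone 3 lay within its range. For the mean of the clones the log2 change was -0.16 (edgeR adjusted p = 0.0267, SE 0.055), with -0.20 in clone 1 (adjusted p = 0.0258), -0.23 in clone 2 (adjusted p = 0.0108) and -0.04 in clone 3 (adjusted p = 0.693). The Exosc10 call held in 18 of 30 alternatives. Without wild-type replicate 1, its highest control library, the value was -0.077 (edgeR adjusted p = 0.303), and the calls in clone 1 (-0.117, adjusted p = 0.182) and clone 2 (-0.143, adjusted p = 0.0974) were lost too. The call for the mean was also lost, at -0.153 to -0.143 with adjusted p from 0.0507 to 0.0594, without wild-type replicate 2, clone 1 replicate 1 or 4, clone 2 replicate 2, or clone 3 replicate 1 or 3. The difference among clones did not pass (adjusted p = 0.0782).

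Of the cap genes, Exosc1 (chromosome 19, 41922292 to 41933423) fell in all 3 clones. Wild type read 45.07, 45.01, 54.8 and 47.85 CPM, clone 1 34.77 to 38.05, clone 2 35.93 to 45.64 and clone 3 37.6 to 42.18. Only replicate 1 of clone 2 reached the wild-type range. Exosc1 changed by -0.32 on the log2 scale (edgeR adjusted p = 0.000585, SE 0.067), and -0.40, -0.30 and -0.26 in clones 1 to 3. For clone 3 the Exosc1 call was lost without wild-type replicate 3 (-0.186, adjusted p = 0.104), clone 3 replicate 3 (-0.221, 0.0774) or clone 3 replicate 4 (-0.251, 0.0546). In Btbd7 KO, Exosc1 went the other way, with libraries at 56.9, 58.14, 63.65 and 61.49 CPM, all above wild type, and a log2 change of 0.32 (edgeR adjusted p = 0.00864, SE 0.083).

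Exosc2 (chromosome 2, 31670715 to 31681349) was the one member called as different among the clones. Wild type read 26.21, 34.37, 25.19 and 24.22 CPM. Clone 1 was high at 33.21, 30.74, 39.09 and 35.02, clone 2 low at 22.34, 23.94, 21.05 and 20.1, and clone 3 in between at 27.98, 31.89, 27.41 and 25.49. Clone 2 lay wholly below both other clones and wild type, and clone 1 overlapped only replicate 2 of wild type. Against wild type the log2 fold change was 0.33 in clone 1 (edgeR adjusted p = 0.0326), -0.33 in clone 2 (adjusted p = 0.0304) and 0.03 in clone 3 (adjusted p = 0.882). The Exosc2 call held in 23 of 28 alternatives for clone 1 and in 20 of 28 for clone 2. It was lost in clone 1 without wild-type replicate 3 or 4 or clone 1 replicate 3 or 4 (0.277 to 0.331, adjusted p from 0.0581 to 0.102). It was lost in clone 2 without wild-type replicate 2 (-0.207, adjusted p = 0.162) or clone 2 replicate 1, 3 or 4 (-0.334 to -0.289, adjusted p from 0.0553 to 0.0996). The 2-degree-of-freedom edgeR test that the clones are equal gave an adjusted p of 0.000471 for Exosc2 and called 1 of 10 members, where 28.5% of all tested genes were called. The mean of the clones, at 0.01 (95% interval -0.19 to 0.20), hides these opposite values.

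Exosc3 (chromosome 4, 45316613 to 45342732), the third cap gene, was sparse and did not pass in any comparison with wild type. It read 3.837, 7.29, 6.205 and 9.266 CPM in wild type and 6.119 to 10.43 over the 12 knockout libraries. The groups overlapped widely, and the log2 fold change of 0.36 had a 95% interval of 0.003 to 0.72 (edgeR adjusted p = 0.109). Without wild-type replicate 4, the highest wild-type library, the Exosc3 value was 0.583 and was called (adjusted p = 0.017).

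Among the barrel genes, Exosc8 and Exosc9 fell. Exosc8 (chromosome 3, 54728678 to 54735393) read 37.72, 54.97, 42.39 and 39.94 CPM in wild type and 30.43 to 38.04 in the knockout libraries, of which 11 of 12 lay below all controls. Exosc8 changed by -0.32 on the log2 scale (edgeR adjusted p = 0.00153, SE 0.076), with -0.30, -0.40 and -0.27 in clones 1 to 3, each called. Without wild-type replicate 2, the highest control, the Exosc8 call was lost in clone 1 (-0.168, adjusted p = 0.127) and clone 3 (-0.141, adjusted p = 0.208). It was also lost without clone 1 replicate 1 or 4 in the first and clone 3 replicate 1, 3 or 4 in the second, with adjusted p from 0.0539 to 0.0883. Against Btbd7 KO, where Exosc8 read 38.89 to 40.81 CPM, the difference was -0.19 and did not pass (adjusted p = 0.0562).

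Exosc9 (chromosome 3, 36552606 to 36565727) showed the largest called fall. It read 17.23, 19.44, 20.86 and 22.75 CPM in wild type, 10.68 to 17.47 in clone 1, 14.8 to 18.31 in clone 2 and 12.67 to 17.1 in clone 3. Of the 12 knockout libraries 8 lay below every control. The fitted log2 change was -0.38 (edgeR adjusted p = 0.00685, SE 0.11), called in clones 1 and 3 (-0.51 and -0.41) and not in clone 2 (-0.22, adjusted p = 0.217). Leaving out wild-type replicate 4 gave -0.292 for Exosc9 (adjusted p = 0.0617). The clone 3 call was lost without wild-type replicate 3 or 4 or clone 3 replicate 1 or 3 (-0.384 to -0.314, adjusted p from 0.0537 to 0.122).

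Both genes overlap a gene on the opposite strand at their 3′ end, and the strand setting of the counting is not given in the sources used here. Exosc9 shares 863 bp with Ccna2, the cyclin A2 gene, which stood at 567 CPM in wild type and fell by 0.49 (adjusted p = 4.57e-08). Exosc8 shares 89 bp with Supt20, which fell by 0.31 (adjusted p = 9.67e-06). The part of these overlaps in the values of Exosc8 and Exosc9 was not tested.

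The other barrel genes did not pass for the mean of the clones. Exosc4 (chromosome 15, 76327397 to 76330677) read 14.83, 21.58, 17.42 and 19.29 CPM in wild type and 12.85 to 17.58 in the knockouts, which is a log2 change of -0.21 (edgeR adjusted p = 0.0876, and -0.284 with adjusted p = 0.0228 for Exosc4 without wild-type replicate 1). Exosc7 (chromosome 9, 123113215 to 123136129) ranged from 11.64 in wild-type replicate 1 to 32.29 in replicate 2, and its log2 fold change of -0.004 had a 95% interval of -0.30 to 0.29. Wild type alone thus spans more than all 12 knockout libraries of Exosc7, which read 18.74 to 24.7.

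Exosc5 (chromosome 7, 25659164 to 25671368) was called higher in Btbd7 KO and in clone 3. Wild type read 7.869, 13.25, 13.83 and 15.54 CPM, Btbd7 KO 20.74, 15.66, 18.36 and 16.73, and clone 3 15.87, 19.71, 20.4 and 14.79. All 4 Btbd7 KO libraries exceeded wild type, and replicate 1 of wild type was again lowest. Fitted log2 changes were 0.50 in Btbd7 KO (edgeR adjusted p = 0.0416, SE 0.17), 0.47 in clone 3 (adjusted p = 0.0359) and 0.33 for the mean of the clones (adjusted p = 0.0635). Without wild-type replicate 1 both Exosc5 calls were lost, at 0.339 in Btbd7 KO (adjusted p = 0.0903) and 0.306 in clone 3 (adjusted p = 0.0936). They were lost too without Btbd7 KO replicate 1, 3 or 4 (0.422 to 0.531, adjusted p from 0.0595 to 0.144) and without clone 3 replicate 2 or 3 (0.424 and 0.407, adjusted p = 0.0952 and 0.109). The value for the mean crossed the threshold for Exosc5 without wild-type replicate 4 (0.472, adjusted p = 0.0207), and it changed sign to -0.167 with Btbd7 KO as the control (adjusted p = 0.357).

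By clone, 5 members were called lower and 1 higher (Exosc2) in clone 1, 5 lower and 0 higher in clone 2, and 4 lower and 1 higher (Exosc5) in clone 3. The matching shares of all tested genes were 19.1% lower and 16.7% higher in clone 1, 16.2% and 16.1% in clone 2, and 15.3% and 14% in clone 3. In Btbd7 KO 2 of 10 members were called higher, Exosc1 and Exosc5, and 0 lower, where 7.73% of genes were called higher and 8% lower (edgeR). For the counts of 0 by edgeR, DESeq2 called 0 members higher in clone 2 and 0 lower in Btbd7 KO, and at an unadjusted p under 0.05 there were 1 (Exosc3) and 0. With Btbd7 KO in place of wild type as the control, 4 of 10 members were lower (Exosc1, Exosc9, Exosc10 and Dis3) and 0 higher by edgeR (0 also at an unadjusted p under 0.05), against 22.2% and 18.8% of all genes. These comparisons share control or knockout libraries and are not independent of each other.

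**Figure D2:**
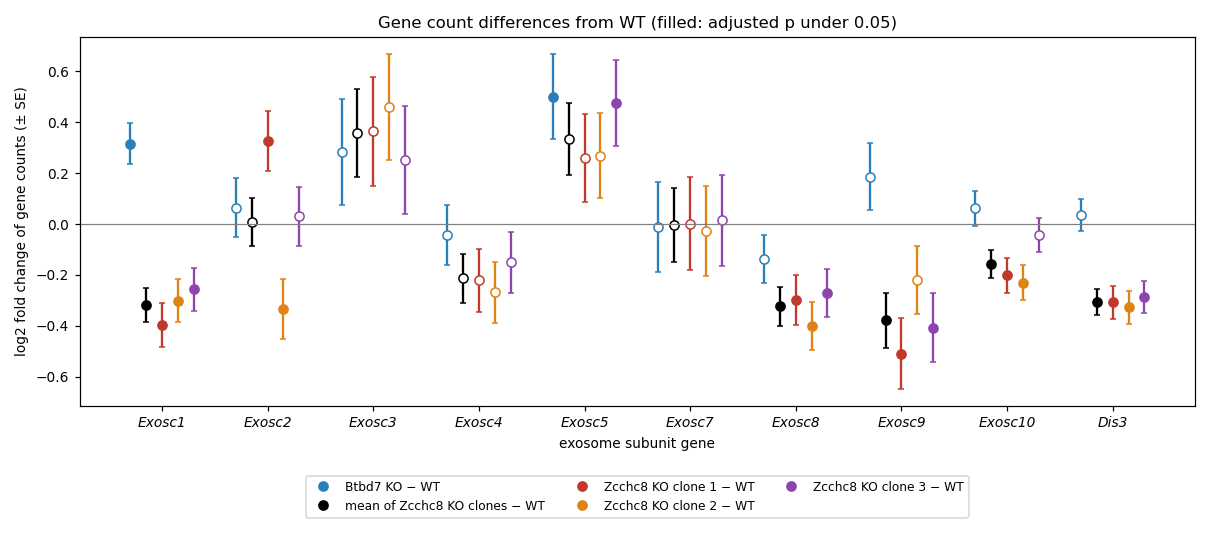
Log2 fold change of gene counts from wild type (vertical axis, ± SE) for the 10 exosome genes (horizontal axis) in Btbd7 KO, in the mean of the Zcchc8 KO clones and in each clone. Filled points have an adjusted p under 0.05: Dis3, Exosc1 and Exosc8 are filled and negative in all 3 clones, and Exosc2 has opposite signs in clones 1 and 2.

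Genes that work with the exosome, and genes of other RNA decay enzymes, were counted in 3 lists. Of the nuclear list (Exosc6 and cofactors, helicases, poly(A) polymerases and adaptors), 9 of 10 genes were tested, with 0 called higher by edgeR (0 at an unadjusted p under 0.05 and 0 by DESeq2), 4 lower and a median log2 fold change of -0.20. Of 5 cytoplasmic exosome and SKI complex genes 1 was called higher and 1 lower (median -0.13), and of 13 other exonucleases, deadenylases and decapping enzymes 1 was higher and 3 lower (median -0.05). Over all tested genes 16.2% were called higher and 19.9% lower, and in Btbd7 KO 7.73% and 8%. In Btbd7 KO 0 of these genes were called higher by edgeR or DESeq2, and at an unadjusted p under 0.05 there was 1 higher in each of the cytoplasmic and the other-enzyme lists and 3 lower in the other-enzyme list. Zfc3h1, of the nuclear list and named here after its values were seen, was the 1 called lower. DESeq2 called it lower too and no other list gene.

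From those lists, 4 genes were called in the same direction for the mean and in every clone (edgeR). Zcchc7, a zinc-finger protein of the TRAMP complex that tags nuclear RNA for the exosome, went from 60.9 CPM in wild type to 50.1 to 51.2 in the clone means (log2 fold change -0.27, adjusted p = 0.0016). Ttc37, a scaffold of the cytoplasmic SKI complex that feeds the exosome, went from 115 to 78.6, 95.8 and 81.2 CPM in clones 1, 2 and 3 (-0.43, adjusted p = 5.08e-07). Dis3l2, an exosome-independent relative of Dis3 that degrades uridylated RNA, went from 51.2 to 45, 33.5 and 43.8 (-0.34, adjusted p = 3.81e-05). Pan2, the catalytic subunit of a poly(A) nuclease, rose from 25 to 34.3, 32.3 and 36.3 (0.46, adjusted p = 0.000575).

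The core subunit gene Exosc6 could not be followed. It lies on chromosome 8 at 111056339 to 111057664, wholly within the alanyl-tRNA synthetase gene Aars on the same strand, and its gene count was 0 in all 20 libraries. Its PROMPT row held counts, at 87.3 ± 4.47 CPM in wild type (SD, n = 3) and 53.5 ± 5.1, 48.8 ± 2.83 and 72.9 ± 5.98 in clones 1 to 3 (n = 4 each). Aars gene counts went from 209 ± 22.5 to 128 ± 12.4, 120 ± 5.8 and 176 ± 21.1 CPM. The log2 fold changes were -0.60 for the Exosc6 PROMPT row and -0.58 for Aars (edgeR adjusted p = 7.58e-10 and 1.12e-07). The part of Aars reads in the Exosc6 PROMPT row was not tested.

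The pattern most like that of Exosc9, the called member with the largest change, was sought among 10767 other genes with a mean of at least 50 counts. The measure was the Euclidean distance between group means of log2 CPM, centred over the 5 groups. Cog5 (0.0545), Ruvbl1 (0.0551) and Psmd1 (0.0615) were nearest, each highest in Btbd7 KO and lowest in clone 1. The likeness rests on 5 group means.

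Upstream of their starts, which is where PROMPTs arise, the exosome genes differ: 7 of the 10 start head to head with another protein-coding gene, on opposite strands with starts within 1000 bp. Of 11481 protein-coding genes tested in the gene table, 17.7% have such a partner. The partners are Zdhhc16 for Exosc1, Dcaf10 for Exosc3, Oplah for Exosc4, Bckdha for Exosc5, Zdhhc3 for Exosc7, Alg5 for Exosc8 and Pibf1 for Dis3. The count uses GENCODE starts. RefSeq places the Exosc3 start 22116 bp away inside the gene, and by that start Exosc3 has no head-to-head pair with Dcaf10. At Exosc3, Exosc4 and Dis3 the 2 genes overlap, by 632, 619 and 347 bp. Exosc10 has the same-strand gene Mtor ending 745 bp upstream, and Exosc2 and Exosc9 have no annotated gene within 5 kb upstream.

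Where the pair does not overlap, the space between both starts is all that lies upstream of the exosome gene before the partner begins. It is shown here for those 4 members, from the RefSeq promoter table on GRCm38.p6, in the direction of the exosome gene. Capitals mark the bases between the GENCODE starts, and the 10 lower-case bases on each side belong to the partner on the left and to the exosome gene on the right.
Exosc7: atgacgcgcaGGCGCGGTGgggagaggcg
Exosc1: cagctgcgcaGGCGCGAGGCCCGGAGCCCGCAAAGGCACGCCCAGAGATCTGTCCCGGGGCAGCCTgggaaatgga
Exosc8: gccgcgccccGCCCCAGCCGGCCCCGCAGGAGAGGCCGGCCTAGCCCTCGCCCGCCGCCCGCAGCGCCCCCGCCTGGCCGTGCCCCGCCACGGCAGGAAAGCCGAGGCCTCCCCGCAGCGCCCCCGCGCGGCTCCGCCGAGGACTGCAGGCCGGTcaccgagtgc
Exosc5: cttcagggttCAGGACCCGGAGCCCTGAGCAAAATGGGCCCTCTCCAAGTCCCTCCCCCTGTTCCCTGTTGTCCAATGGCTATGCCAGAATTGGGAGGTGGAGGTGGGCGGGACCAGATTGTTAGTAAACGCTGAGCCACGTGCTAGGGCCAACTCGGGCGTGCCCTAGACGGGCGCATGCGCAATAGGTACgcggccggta

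These lie at chr9:123113196-123113224 on the plus strand, chr19:41933414-41933489 on the minus strand, chr3:54735384-54735548 on the minus strand and chr7:25658972-25659173 on the plus strand. The space is 9 bases at Exosc7, 56 at Exosc1, 145 at Exosc8 and 182 at Exosc5. It is 88.9%, 75%, 83.4% and 61% G+C in the same order. Any upstream region longer than that space includes bases of the partner gene. RefSeq places the starts of these members 11 to 109 bp from those of GENCODE.

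The table held a promoter of 300 bases (250 before to 50 after the start) for 8 of the 10 members, and Exosc4 and Exosc9 had no entry. The windows of these 8 ranged from 48.0% to 75.7% G+C with 11 to 41 CpG, against medians of 52.7% and 7 over 32851 promoters. On either strand, GGGCGG occurred in 7 of 8 members (35.7% of all promoters), CCAAT in 4 of 8 (37.4%) and TATAAA in 0 of 8 (13.6%). CCGGAAG occurred in 3 of 8 (8.86%) and AATAAA in 0 of 8 (19.6%). A member counted if any of its windows held the motif, whereas the shares are per promoter. Exosc10 had windows from 148558169 and from 148558463, with GGGCGG only in the former. The Exosc3 window lies at its RefSeq start, 22116 bp from that of GENCODE.

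The summed PROMPT level of the exosome genes was higher in every Zcchc8 KO clone than in the controls, and the largest fold changes were at Exosc4 and Exosc9. Of 9 members tested, 4 were called higher (Exosc1, Exosc4, Exosc8 and Exosc9) and 1 lower (Exosc3). Of these, Exosc9 passed the expression filter only through Zcchc8 KO libraries. With cell lines as replicates Exosc4 and Exosc9 were called, Exosc1, Exosc8 and Exosc3 were not (adjusted p = 0.28, 0.135 and 0.318), and Exosc5 was called higher (0.544, adjusted p = 0.0471). Over all 17617 tested PROMPTs 39.2% were called higher and 3.85% lower (edgeR). The median log2 fold change was 0.31 over the members and 0.43 over all PROMPTs. The summed PROMPT level was 52.7 ± 3.73 CPM in wild type (SD, n = 3), and with n = 4 it was 52.87 ± 2 in Btbd7 KO and 69.48 ± 2.28, 69.18 ± 4.41 and 68.19 ± 5.63 in clones 1, 2 and 3.

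Exosc4 rose in every clone. Its PROMPT row read 0.81, 1.196 and 1.759 CPM in wild-type replicates 2 to 4, and 1.266, 1.128, 0.2481 and 1.014 in Btbd7 KO. Clone 1 read 9.767, 8.666, 3.764 and 9.807, clone 2 6.579, 6.269, 5.704 and 6.424, and clone 3 5.624, 4.77, 4.971 and 6.405. All 12 knockout libraries exceeded all 7 controls, and the lowest, replicate 3 of clone 1, was still above the highest control. On the log2 scale the rise was 2.36 (edgeR adjusted p = 1.5e-10, SE 0.28), about 5.14-fold, with 2.67, 2.30 and 2.12 in clones 1 to 3 and -0.35 in Btbd7 KO (adjusted p = 0.693). Relative to the Exosc4 gene count, the PROMPT count went from 6.58% ± 2.69 (SD, n = 3) in wild type to 51.3% ± 19, 41.7% ± 6.92 and 33.1% ± 4.96 in clones 1 to 3 (n = 4 each). Oplah, the partner that overlaps the Exosc4 start, was almost silent at 0.51 ± 0.439 CPM in wild type (SD, n = 4) and did not pass the test (-0.25, adjusted p = 0.808).

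Exosc9, with no gene upstream, had few PROMPT counts but a sharp contrast. The row held 2, 1 and 0 counts in the wild-type libraries and 0 in all 4 Btbd7 KO libraries. It held 6, 6, 7 and 5 counts in clone 1, 6, 16, 9 and 12 in clone 2, and 4, 5, 10 and 8 in clone 3, so that no knockout library overlapped a control. Pooled, 94 counts in the knockouts against 3 in wild type gave a ratio of 11.7 after scaling to library size (95% interval 3.89 to 57.8, counting error only). Against Btbd7 KO the pooled knockouts stood at 12.6 times a floor of 3 counts over the group. This leaves out the counting error of the knockouts and is not a lower bound. On the log2 scale the fitted rise was 3.39 (edgeR adjusted p = 0.00137, SE 0.90), and it was called in each clone. The row passed the expression filter only through Zcchc8 KO libraries, as no wild-type library exceeded 0.1157 CPM and Btbd7 KO held 0. These calls thus rest on a row kept for its knockout counts, so they are not separate evidence of the rise. In this locus the gene itself fell while its PROMPT rose.

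Exosc2, the other member with no gene upstream, could not be assessed at this depth. Its PROMPT row held 0 counts in every wild-type library, 2 in Btbd7 KO, and 5, 4 and 4 in clones 1 to 3 in all, too few to be tested. A floor of 3 counts over the 3 wild-type libraries, which held 0, corresponds to 0.0629 CPM. The knockouts pooled to 0.102 CPM from 13 counts, 1.62 times that floor. This leaves out the counting error of the 13 counts and is not a lower bound. The ratio of the knockouts to Btbd7 KO was 2.62 with a 95% counting interval of 0.594 to 24, which includes both no change and the ratio of 11.7 at Exosc9.

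By GENCODE starts, the head-to-head members with an expressed partner had wild-type PROMPT levels from 4.167 CPM at Exosc3 to 15.79 at Exosc1. These exceeded the levels of Exosc2, Exosc4 and Exosc9. Their log2 changes ran from -0.69 at Exosc3 to 0.42 at Exosc8. Exosc10, which has no head-to-head partner, had a like level (6.484 CPM) and change (0.30), so neither trait is particular to the pairs. Exosc8 read 7.58, 7.177 and 7.682 in wild type and 7.814 to 12.06 in the knockouts, all 12 above wild type, a log2 change of 0.42 (edgeR adjusted p = 0.0168, SE 0.15). Exosc1 read 18.4, 14.2 and 14.78 in wild type and 15.89 to 22.02 in the knockouts, which overlap (0.31, adjusted p = 0.0218). In Btbd7 KO, Exosc1 read 17.25 to 19.23 CPM (0.20) and Exosc8 7.32 to 9.026 (0.12), neither called. With Btbd7 KO as the control neither rise passed by edgeR, at 0.11 for Exosc1 (adjusted p = 0.391) and 0.31 for Exosc8 (adjusted p = 0.0519). Of the 12 knockout libraries, 8 lay above all controls for Exosc1 and 9 for Exosc8. For Exosc1 the call was lost without wild-type replicate 3 (0.25, adjusted p = 0.138) or 4 (0.282, adjusted p = 0.0877), in clone 1 too (0.329 and 0.36, adjusted p = 0.0836 and 0.0538), and for Exosc8 without wild-type replicate 3 (0.403, adjusted p = 0.0613). In clone 3 the Exosc8 call (0.43, adjusted p = 0.0468) held in 18 of 28 alternatives and was lost without any one of the 3 wild-type libraries or of clone 3 replicates 1, 3 and 4 (0.347 to 0.456, adjusted p from 0.0669 to 0.159).

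Exosc3 was the one PROMPT that fell. It read 3.414, 4.336 and 4.75 CPM in wild type, 1.989, 3.318, 2.109 and 2.45 in Btbd7 KO, and 1.172 to 3.948 in the Zcchc8 KO libraries, 11 of which lay below all wild-type libraries. All 4 Btbd7 KO libraries lay below wild type too. Log2 changes were -0.69 in Zcchc8 KO (edgeR adjusted p = 0.0232, SE 0.26) and -0.74 in Btbd7 KO (adjusted p = 0.204), and with Btbd7 KO as the control it was 0.052. The call was lost for Exosc3 without wild-type replicate 3 (-0.657, adjusted p = 0.075) or 4 (-0.563, adjusted p = 0.135). RefSeq places the Exosc3 start 22116 bp from that of GENCODE, inside the GENCODE gene. Dcaf10, the partner that overlaps the GENCODE start, stood at 60.3 CPM in wild type. Its gene counts changed by -0.19 in Zcchc8 KO (edgeR adjusted p = 0.0501) and by -0.34 in Btbd7 KO (adjusted p = 0.0116). The part of Dcaf10 reads in the Exosc3 PROMPT row was not tested.

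The remaining PROMPT rows did not pass for the mean of the clones. The log2 fold change was 0.41 for Exosc5 (95% interval 0.04 to 0.78, edgeR adjusted p = 0.0653), 0.18 for Exosc7 (-0.16 to 0.51), 0.30 for Exosc10 (-0.06 to 0.65) and 0.21 for Dis3 (-0.24 to 0.66). Exosc5 read 5.786, 7.028 and 5.806 CPM in wild type and 7.156 to 11.38 in clone 3, where it was called (0.61, adjusted p = 0.018). That call was lost without wild-type replicate 2 or 4 or clone 3 replicate 1 or 4 (0.497 to 0.577, adjusted p from 0.05 to 0.0915). Bckdha, the partner gene 182 bases upstream of Exosc5, rose in gene counts by 0.63 in Zcchc8 KO (edgeR adjusted p = 1.97e-05). The part of Bckdha reads in the Exosc5 PROMPT row was not tested. For the mean of the clones, the upper bounds of Exosc5, Exosc7, Exosc10 and Dis3 lie below the lower bound for Exosc4, 1.80.

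**Figure D3:**
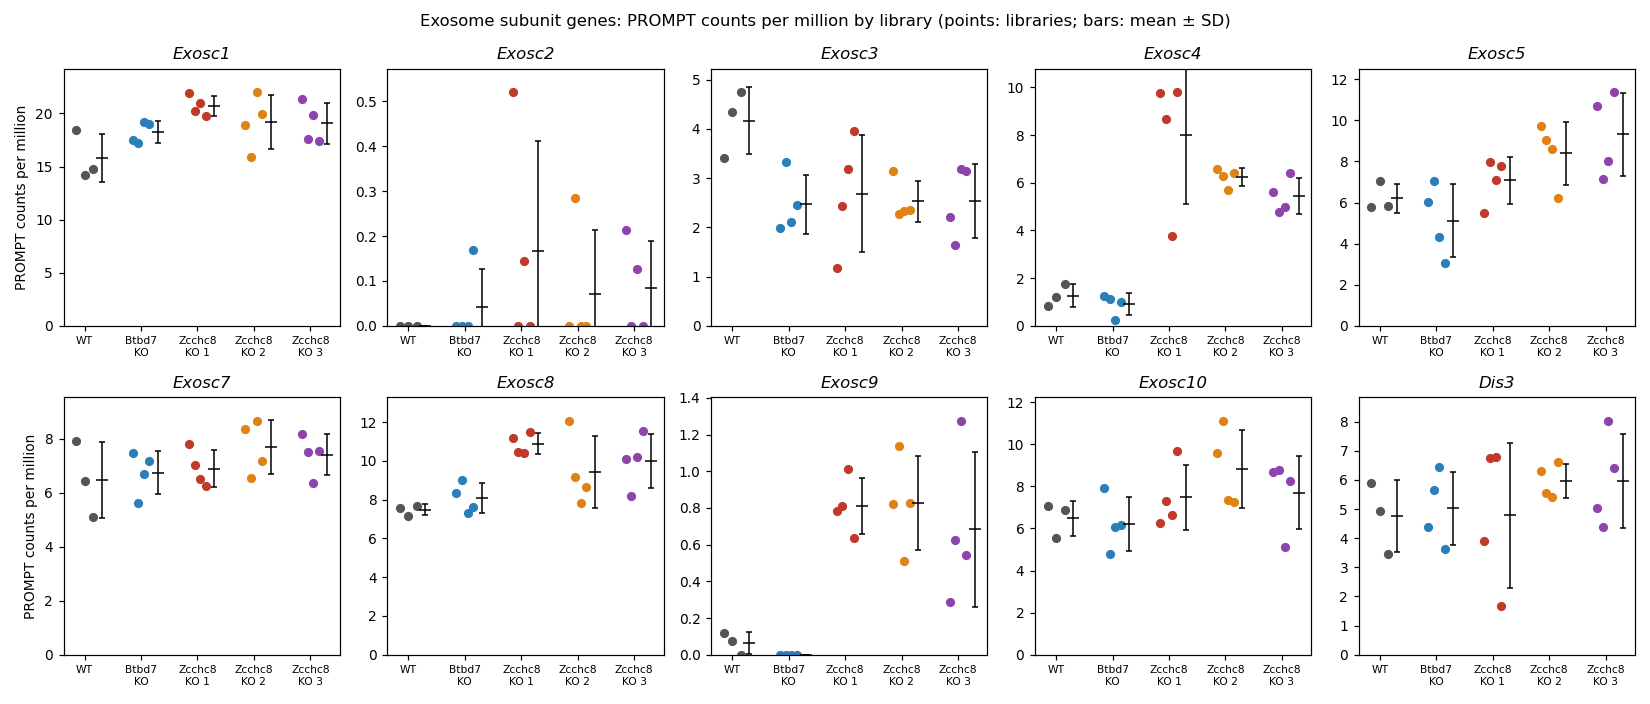
PROMPT level in CPM (vertical axes, each from 0) of the 10 exosome genes in every library of the PROMPT table, by group (horizontal axis). Points are libraries and bars are the mean ± SD, with 3 wild-type libraries and 4 in the other groups. Exosc4 and Exosc9 separate all 12 Zcchc8 KO libraries from all controls, and Exosc3 is lower than wild type in Btbd7 KO as well.

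Per clone, 4 of 9 PROMPTs were called higher in clone 1, 2 in clone 2 (Exosc4 and Exosc9) and 4 in clone 3, with 0 lower in each. The shares over all PROMPTs were 38.7% higher and 4.22% lower in clone 1, 35.1% and 3.51% in clone 2, and 36.4% and 2.55% in clone 3. In Btbd7 KO 0 of 9 were called in either direction by edgeR, where 1.23% of all PROMPTs were higher and 1.75% lower. At an unadjusted p under 0.05, 1 of the 9 (Exosc3) was lower in Btbd7 KO, clone 2 and clone 3 each, 0 in clone 1, and 0 were higher in Btbd7 KO. DESeq2 called Exosc3 lower in clone 2 with a local dispersion trend and 0 lower there with a trend inverse to the mean, and 0 in either direction in Btbd7 KO with each trend. It called 0 lower in clones 1 and 3 with each. The clones differed for 0 of 9 members by the edgeR test with 2 degrees of freedom, where 10.9% of PROMPTs were called and the smallest unadjusted p among the members was 0.095 (DESeq2 also called 0). Against Btbd7 KO, 3 of 9 were higher (Exosc4, Exosc5 and Exosc9) and 0 lower by edgeR, also at an unadjusted p under 0.05, with 45.1% and 6% of all PROMPTs.

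The upstream arrangement gives a closer background for these values. Among tested protein-coding genes with a head-to-head partner, the median PROMPT log2 fold change in Zcchc8 KO was 0.20 over 1878 tested rows, and 29.3% were called higher. Among those with no gene within 5 kb upstream it was 2.56 over 3162 rows, and 83.4% were called higher. The filter kept 1878 of 2031 genes in the first class and 3162 of 5270 in the second. Rows with few counts in every control could pass it only through Zcchc8 KO libraries. The part of this filter in the medians and shares was not tested. The 7 head-to-head members by GENCODE starts, Exosc3 included, had a median of 0.31. This lies between the 0.20 of the first class and the 0.43 of all PROMPTs. Of these 7, 42.9% were called higher and 14.3% lower, against 29.3% and 4.95% in the first class. Exosc4, at 2.36, lay near the second although it has an annotated partner. No test compared the members with these classes.

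**Figure D4:**
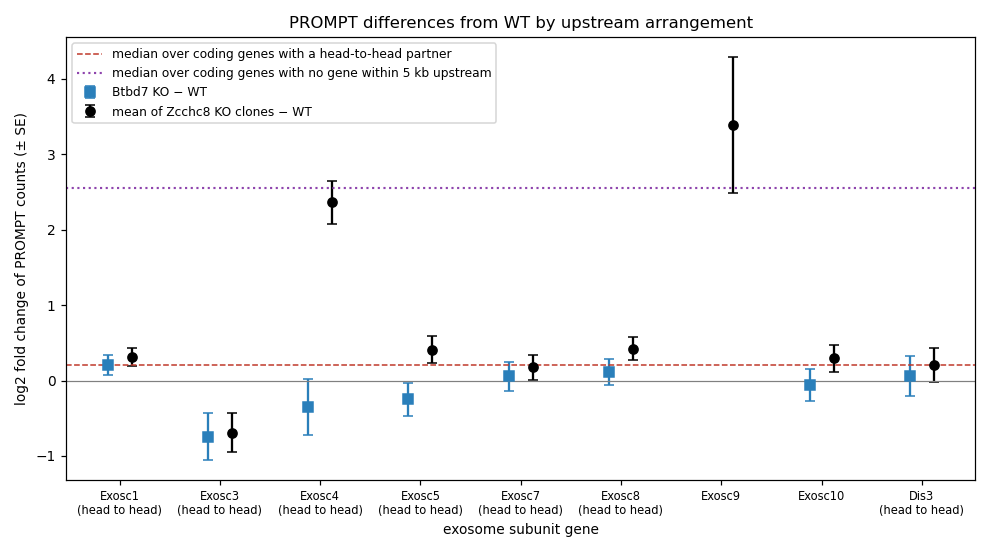
Log2 fold change of PROMPT counts from wild type (vertical axis, ± SE) for the 9 exosome genes tested (horizontal axis), in Btbd7 KO (squares) and the mean of the Zcchc8 KO clones (circles). The dashed line is the median of protein-coding genes with a head-to-head partner (0.20) and the dotted line that of genes with no gene within 5 kb upstream (2.56). Both medians cover only rows that passed the filter. Exosc4 and Exosc9 lie near or above the dotted line, and no square is drawn for Exosc9, which had 0 counts in Btbd7 KO.

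The partner genes did not move as one with the exosome genes. Of the 7 partners, Alg5 (-0.41, edgeR adjusted p = 0.000451) and Zdhhc3 (-0.33, adjusted p = 6.59e-06) fell in Zcchc8 KO and Bckdha rose (0.63, adjusted p = 1.97e-05). Alg5 fell beside Exosc8, which also fell, and Zdhhc3 fell beside Exosc7, whose log2 fold change was -0.004. Zdhhc16, Pibf1, Oplah and Dcaf10 did not pass (-0.05, -0.04, -0.25 and -0.19), although Exosc1 and Dis3, whose starts lie 57 and 346 bp from those of Zdhhc16 and Pibf1, were both called lower.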

How the data were processed

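Libraries of SIMS total RNA (TRIzol, spin columns) were made with a stranded TruSeq kit, per the labels' protocols. FastQC and STAR 2.7.3a are named in the submitters' processing notes. The authors deposited raw counts, whole numbers per gene and per PROMPT region in each library. The counter, strand setting, genome build, annotation and extent of a PROMPT region are not given in the sources used here. Libraries were grouped by title. Of 55471 identifiers, 54573 matched GENCODE M21 (GRCm38) with their version, and all 10 members did. Replicates differed by more than counting noise in all 30 within-group pairs (chi-square over degrees of freedom from 2.85 to 73.6), and none were merged.

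The test was that of edgeR 4.0.16 under R 4.3.3 (filterByExpr by group, TMM over all genes, glmQLFit, glmQLFTest), in 1 fit per table over all groups, with Benjamini-Hochberg adjustment over all features and calls at an adjusted p under 0.05. PROMPT counts were scaled by library sizes and TMM factors of the gene table. CPM values were computed from the same scaled totals, and standard errors and 95% intervals from the quasi-likelihood test. Intervals of pooled counts cover counting error only, and folds over the floor of 3 counts leave out the counting error of the knockouts. In simulated data edgeR recovered 65% of genes changed 2-fold and 88% of those changed 4-fold over 15297 genes, and 52% and 82% over 17617 PROMPTs. False calls made up 6.71% of the gene calls and 5.63% of the PROMPT calls. Each simulation changed 200 features and none by less than 2-fold, so it gives no recovery for the smaller gene falls above. All 10 members, the upstream neighbours within 5 kb and 3 lists of related genes were named by rule, and list genes were given values only if called one way for the mean and every clone. The members and lists were chosen with earlier results of these data known. Alternatives were DESeq2 1.42.0 (parametric dispersion trend for genes, local for PROMPTs), other filters and scalings, the groups compared alone, equal depth, Btbd7 KO as control, a replicate block, cell lines as replicates, and leaving out each library. TMM over filtered genes, the DESeq2 trends for PROMPTs and the shares by upstream arrangement were added after seeing the data. Figures were drawn with matplotlib 3.10.9. Tables of other regulatory features were not used here.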

Additional observations from a re-analysis of the deposited data

Results flagged for a closer look

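In 89 groups of 4 libraries (a member, a table and a group), 5 held a library far from the other 3 by Dixon's criterion, which chance flags in about 1 of 20 groups. The Exosc4 gene count in replicate 3 of Btbd7 KO was 17 CPM against 17.9 to 18 in the others, a small gap in a tight group. The Exosc2 PROMPT row read 0.169 CPM in replicate 4 of Btbd7 KO and 0.285 in replicate 2 of clone 2, with 0 in the other 3 libraries of each group. The Exosc3 PROMPT row read 3.15 CPM in replicate 1 of clone 2, against 2.28 to 2.35 in the others. The Exosc10 PROMPT row read 5.1 CPM in replicate 3 of clone 3, against 8.24 to 8.79. Among the contrasts, Exosc2 gene counts differed among the 3 Zcchc8 KO clones (edgeR, 2 degrees of freedom, adjusted p = 0.000471), higher than wild type in clone 1 and lower in clone 2.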

How the results depend on the processing

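Counts of members called for gene counts moved as follows. For Zcchc8 KO, 1 was higher under DESeq2, without TMM and with TMM over filtered genes, in each case Exosc5, and 0 were lower with cell lines as replicates, where 2 control lines face 3 clones (Exosc1 adjusted p = 0.0823, Dis3 0.0971). Leaving out single libraries gave 0 to 2 higher and 4 to 5 lower. In clone 1, 3 were lower under DESeq2, without TMM and with only the groups compared (0 higher with the last), and 3 to 5 lower and 0 to 1 higher without single libraries. In clone 2, 3 were lower at equal depth, 2 with only the groups compared and 2 without TMM (1 higher with the last), and 4 to 5 lower and 0 to 1 higher without single libraries. In clone 3, 2 were lower without a filter, 1 without TMM and 1 with only the groups compared (0 higher with the last), and 1 to 4 lower and 0 to 1 higher without single libraries. In Btbd7 KO, 1 was higher at equal depth and with only the groups compared, and 1 to 2 without single libraries. With only the groups compared, 2 members differed among clones. Exosc10 held its call in 18 of 30 alternatives, and lost it without any 1 of 7 libraries, with cell lines as replicates (-0.182, adjusted p = 0.402), without a filter (-0.158, 0.0915), under DESeq2 (-0.127, 0.0972), with TMM over filtered genes (-0.136, 0.0582) and without TMM (-0.079, 0.266), where the median of all genes moved to 0.07. The fall of Dis3 held in 29 of 30 alternatives (-0.343 to -0.229), that of Exosc1 in 29 of 30 and those of Exosc8 and Exosc9 in 28 of 30. The cause of these shifts was not tested.

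For PROMPTs in Zcchc8 KO, scaling within the PROMPT table, which centres all PROMPTs near 0, left 2 called higher and moved Exosc1 to -0.069 (clone 1 -0.060). It gave 2 higher in clones 1 and 3 and 1 lower in each of the 3 clones. With Btbd7 KO as control, with cell lines as replicates and with the replicate block 0 were lower, and with Btbd7 KO as control Exosc3 reversed to 0.052. Clone 2 had 1 higher with a mean of at least 10 counts (Exosc9 was not tested there), 5 without TMM, and 1 lower under DESeq2 and with only the groups compared. Clone 3 had 2 higher with only the groups compared. Without single libraries, Zcchc8 KO had 2 to 5 higher and 0 to 1 lower, clones 1 and 2 had 0 to 1 lower, and clone 3 had 2 to 4 higher. Exosc4 was called in 30 of 30 alternatives (1.986 to 2.726). Exosc9 was called in 29 of 29 (2.85 to 6.199), but its row passed the expression filter only through Zcchc8 KO libraries. These Exosc9 calls are thus not separate evidence of its rise. The value of 6.199 had Btbd7 KO, with 0 counts, as the control, so its size is not well determined. DESeq2 itself depended on its dispersion trend for PROMPTs. Its default parametric trend was numerically unstable there, converging or not with the computing threads used, so a local trend was used, chosen after both sets of calls were seen. The local trend called 5 higher for Zcchc8 KO and 5 for clone 3, and Exosc3 lower in clone 2 (-0.709, adjusted p = 0.0442). A trend inverse to the mean, added after seeing the data, called 4 higher in each and 0 lower in clone 2, with Exosc3 at an adjusted p of 0.0857.

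Replicate numbers did not pair the libraries: over 40 same-numbered pairs of groups the correlation of deviations ran from -0.0871 to 0.152, and 4 of 20 libraries correlated best with their own number. With the replicate number as a block 5 members were lower and 0 higher for gene counts, and no gene call changed, while the Exosc3 PROMPT call was lost (-0.618, adjusted p = 0.0596). Depth limits the PROMPT rows of Exosc2, not tested with 0 counts in wild type, and of Exosc9, with 3 counts there.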
